A study of Caenorhabditis elegans with 2 samples.

Results

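The peaks described here are ChIP-seq peaks of the nuclear hormone receptor NHR-179 on the autosomes of Caenorhabditis elegans. They lie outside protein-coding genes and more than 500 bp from their starts, and are called distal intergenic peaks below. The 3′ end of a gene may be nearer. A peak of the authors' pooled list was taken when its summit lay on chromosomes I to V, outside every protein-coding gene, more than 500 bp from every protein-coding transcript start and more than 200 bp from any tRNA, snRNA, snoRNA or rRNA gene. The rule left 1402 of 9606 pooled peaks, or 14.6%. They made up 20.2% of the 6943 autosomal peaks in that list. The same rule, applied base by base to the genome, left 23.05 Mb of sequence, or 27.9% of the autosomes, which is called distal intergenic sequence.

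The study had 1 group of 2 biological replicates, numbered 2 and 3. Each was chromatin of whole young adult hermaphrodites of strain OP465, with genotype unc-119(tm4063) III; wgIs465, collected 64 h after larvae were synchronized by bleaching and starvation at the L1 stage. The insertion wgIs465 stably expresses NHR-179 whose C-terminus carries a GFP-FLAG tag, and this protein was precipitated through its GFP. The labels do not give the promoter, copy number or integration site of the insertion. With 1 group there was no comparison between treatments. The files hold scores without read counts, so sequencing depth is unknown, and the intervals below cover counting error over peaks only.

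Nuclear hormone receptors are transcription factors that bind short DNA elements, often built from the half-site AGGTCA, and C. elegans has a greatly expanded family of them. Most transcription factor sites in this compact genome lie near gene starts, while the sequence between genes also holds transposon remnants, tandem repeats, pseudogenes and genes for microRNAs, piRNAs and other non-coding RNAs. The outer arms of the autosomes are richer in repeats and recombine more than the gene-dense centres.

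The sequences below show what lies under the higher distal intergenic peaks. They are read 5′ to 3′ on the forward strand of WBcel235 (ce11) from the RefSeq genome of that assembly. Each peak is named by the gene it lies in or by the protein-coding gene with the nearest transcript start, which need not be its target. The first set holds tandem repeats, and capitals mark 1 repeat unit from the summit on. The windows are chrIII:931517-931670 (the whole peak), chrV:5284747-5284847 and chrV:12510117-12510217.
fbxa-55 peak: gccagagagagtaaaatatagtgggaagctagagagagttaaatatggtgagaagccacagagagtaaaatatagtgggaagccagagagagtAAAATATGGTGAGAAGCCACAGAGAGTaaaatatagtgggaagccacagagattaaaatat
Y49G5A.1 peak: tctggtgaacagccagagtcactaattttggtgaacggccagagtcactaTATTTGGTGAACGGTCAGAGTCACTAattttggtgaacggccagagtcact
T28H10.2 peak: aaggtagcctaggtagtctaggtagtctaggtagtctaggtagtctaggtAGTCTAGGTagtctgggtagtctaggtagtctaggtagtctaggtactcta
The next 3 windows, chrII:5353814-5353914, chrV:5667440-5667540 and chrV:5592095-5592195, share a short element, and capitals mark GTTCNANNC on either strand.
F09E5.7 peak: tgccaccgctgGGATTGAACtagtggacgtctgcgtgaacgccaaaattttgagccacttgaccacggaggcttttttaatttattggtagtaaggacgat
C14C11.7 peak: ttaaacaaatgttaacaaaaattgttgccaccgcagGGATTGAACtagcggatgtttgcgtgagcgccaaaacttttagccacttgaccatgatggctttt
vps-37 peak: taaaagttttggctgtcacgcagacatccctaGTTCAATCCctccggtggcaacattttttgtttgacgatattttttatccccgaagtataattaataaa
Summits inside non-coding RNA genes are shown by chrIV:11026009-11026109, chrIV:14033981-14034081 and chrIII:5211379-5211479, with the bases of the gene in capitals; mir-51 is on the reverse strand, and mir-52 and srpr-2.1 are on the forward strand.
mir-51 peak: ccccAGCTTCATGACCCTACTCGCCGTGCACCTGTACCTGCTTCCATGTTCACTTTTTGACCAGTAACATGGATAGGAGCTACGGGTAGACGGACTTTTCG
mir-52 peak: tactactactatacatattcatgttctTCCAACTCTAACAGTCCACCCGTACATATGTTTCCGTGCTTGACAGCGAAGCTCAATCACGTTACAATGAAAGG
srpr-2.1 peak: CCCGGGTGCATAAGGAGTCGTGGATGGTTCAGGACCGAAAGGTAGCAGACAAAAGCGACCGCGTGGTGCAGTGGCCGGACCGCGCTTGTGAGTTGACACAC
The last pair, chrV:1151456-1151556 and chrII:14251594-14251694, are the highest peaks whose windows held no repeated word. Capitals mark GAGAGA, which the window in linc-128 does not hold.
linc-128 peak: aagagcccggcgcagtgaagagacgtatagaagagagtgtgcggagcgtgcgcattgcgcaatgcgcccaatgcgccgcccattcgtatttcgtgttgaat
Y54G11A.2 peak: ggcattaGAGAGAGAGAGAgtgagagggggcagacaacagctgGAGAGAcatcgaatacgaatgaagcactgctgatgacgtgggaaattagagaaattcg

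Most distal intergenic peaks were weak. Their signal, the authors' score for each peak with no stated scale, ran from 30.07 to 194.0 with a median of 35.16, and the middle 50% of them lay between 32.06 and 40.14. The other autosomal peaks of the pooled list had a median of 36.47. The deposited q-values were high, with a median −log10 q of 0.0776, which is a q of 0.836. In all, 1219 peaks, or 86.95%, had a −log10 q under 0.3 and 12 had one of 2 or more. Per the deposited file descriptions the pooled list holds background regions as well as peaks, and no threshold separates them here. All but 1 were 444 bp wide, and the fbxa-55 peak was 154 bp wide.

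The authors' optimal list, which keeps peaks that recur by the irreproducible discovery rate, held 16 distal intergenic peaks. That was 1.14% of them (95% interval 0.654 to 1.85, exact Clopper-Pearson), against 2.67% of all pooled peaks and 1.83% of autosomal ones. The lowest of the 16 had a signal of 75.44, and the next distal intergenic peak, near xbp-1 and outside the list, had 74.6. The optimal list took 2.46% of the 773 X distal intergenic peaks, 0.729% of the 2194 autosomal promoter peaks, which lie within 500 bp of a start, and 0.492% of the 1220 autosomal intron peaks. The classes were close in median signal, with 35.16 for autosomal distal intergenic peaks, 35.96 for X distal intergenic peaks, 36.21 for promoter peaks and 35.51 for intron peaks.

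**Figure D1:**
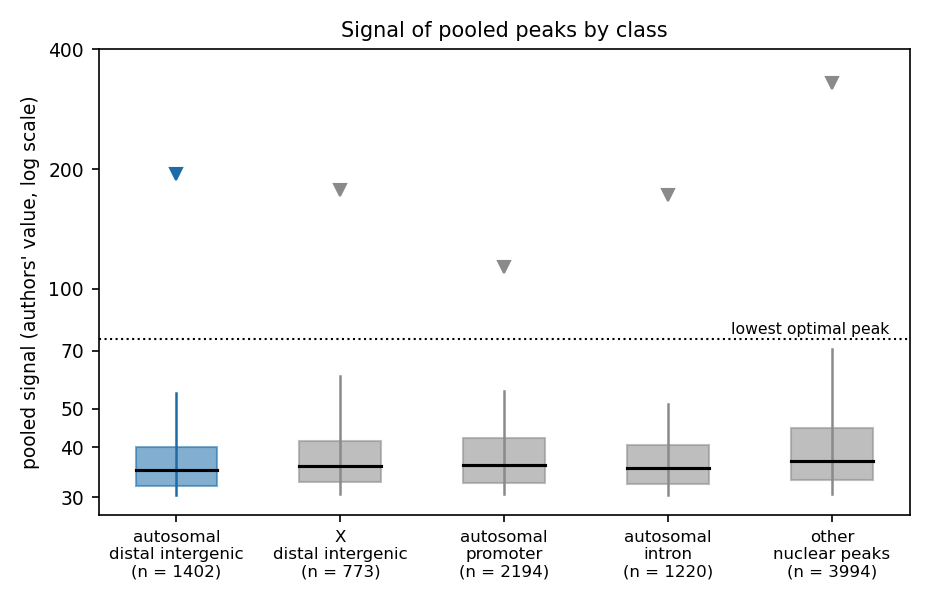
Pooled signal (the authors' value, log scale) of autosomal distal intergenic peaks and of 4 other classes of nuclear peaks. Boxes span the 25th to 75th percentile with the median as a black line, thin lines span the 5th to 95th percentile, triangles mark the highest peak and the dotted line the lowest signal in the optimal list, 74.72. The autosomal distal intergenic peaks have the lowest median, 35.16, and reach 194.0.

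A minority of the distal intergenic peaks were found in both replicates. With summits within 100 bp counted as matched, 287 of 1402, or 20.5%, had a match in both replicate lists, against 24.5% of all nuclear pooled peaks and 23.8% of autosomal ones. Another 476 matched replicate 2 alone, 446 matched replicate 3 alone and 193 matched neither. Among the 287, signals ran from 16.1 to 91.65 in the list of replicate 2 and from 15.73 to 110.6 in that of replicate 3, and the rank correlation across peaks was 0.347, against 0.327 over the other 1362 autosomal peaks with both matches. Peaks are not independent replicates, and the pooled list was made from the same reads, so recurrence and pooled signal are not independent. Of the 25% of peaks with the highest pooled signal (40.16 or more), 53.0% matched both replicates, against 1.43% of the lowest 25%. The median pooled signal was 43.45 for peaks found in both and 33.75 for the others.

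**Figure D2:**
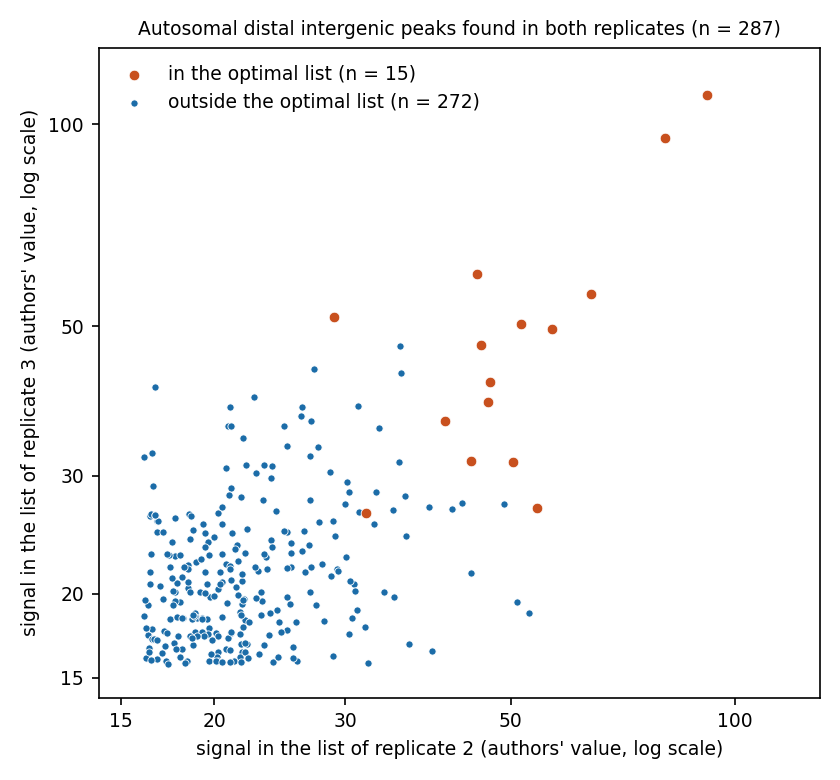
Signal in the list of replicate 3 against signal in the list of replicate 2 (the authors' values, log scales) for the 287 autosomal distal intergenic peaks with a summit within 100 bp in both. Orange points are the 15 in the optimal list and blue points the other 272; the fbxa-55 and nas-30 peaks stand apart at the upper right.

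The highest 25 distal intergenic peaks mixed tandem repeats, non-coding RNA genes and single-copy sequence. Of these, 23 matched both replicates, 12 lay in chromosome arms and 8 had their summit in a non-coding RNA gene. In or within 50 bp of a tandem repeat lay 4, and 0 lay in a pseudogene. Over all distal intergenic peaks 20.5% matched both replicates, 51.7% lay in arms and 5.28% in a non-coding RNA gene. In or within 50 bp of a tandem repeat lay 5.35% of all, and 10.8% lay in a pseudogene. The 25 were chosen by pooled signal, which is not independent of recurrence. The top pair belonged to the same 27-base tandem repeat. The fbxa-55 peak, on III from 931517 to 931670 near a gene for an F-box protein, had a signal of 194.0 in the pooled list, 91.65 in replicate 2 and 110.6 in replicate 3, and was 4457 bp from that gene's start. The nas-30 peak, on I from 933293 to 933736 near an astacin metalloprotease gene, had a pooled signal of 151.5, with 80.5 in replicate 2 and 95.46 in replicate 3. Both peaks ranked among the first 42 in each replicate list, and the next distal intergenic peaks ranked 73 in replicate 2 (linc-128) and 76 in replicate 3 (mir-51).

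Beside the first pair, 4 peaks over non-coding or single-copy sequence had a pooled signal near 100 or above. The linc-128 peak, on V from 1151284 to 1151727 in a long intergenic non-coding RNA gene whose nearest coding start is that of the calmodulin gene cmd-1, had a signal of 117.5, with 64.05 in replicate 2 and 55.96 in replicate 3. The Y54G11A.2 peak, on II from 14251422 to 14251865, had 116.2, with 56.9 in replicate 2 and 49.49 in replicate 3. The cpg-1 peak, on III from 4491212 to 4491655 near a gene for an eggshell proteoglycan, had 102.7, with 51.62 in replicate 2 and 50.46 in replicate 3. All 3 lay below the fbxa-55 and nas-30 peaks in each of the 3 lists. The mir-51 peak, on IV from 11025837 to 11026280, had 98.99, with 45.11 in replicate 2 and 59.78 in replicate 3.

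The rest of the highest peaks lay between 66.92 and 94.26, and most matched in both replicates with unequal values. Near zfr-1, which encodes a zinc finger RNA-binding protein, a peak on I from 852007 to 852450 had 85.75 (46.56 in replicate 2 and 38.61 in replicate 3). The act-2 peak, near an actin gene and with its summit in the non-coding RNA gene T04C12.14, had 75.44 (28.95 in replicate 2 and 51.6 in replicate 3). The xbp-1 peak, near the gene for a transcription factor of the unfolded protein response, had 74.6 (35.62 in replicate 2 and 42.56 in replicate 3). The lad-2 peak, near a gene for a neuronal adhesion protein, had 67.27 and was uneven, with 39.23 in replicate 2 and 16.41, near the foot of the list, in replicate 3. The peak in mir-52 (88.99, nearest start Y37A1B.7) had 37.14 in replicate 3, and the nearest summit of replicate 2, that of a peak with a signal of 53.75, lay 138 bp away, outside the 100 bp that count as a match. The peak near pab-1, the gene of a poly(A)-binding protein, had 70.33 pooled and 33.79 in replicate 3, and the nearest summit of replicate 2 was 1610 bp away.

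Several of these peaks were higher in the list of replicate 2 by more than 10 units. The T26E3.7 peak on I had 83.74 pooled, with 50.41 in replicate 2 and 31.4 in replicate 3. The Y25C1A.2 peak on II, with 62.4% GC, had 81.51, with 44.24 in replicate 2 and 31.53 in replicate 3. The Y97E10C.1 peak on V had 69.63, with 43.08 in replicate 2 and 27.33 in replicate 3. The same held near fath-1, the gene of a fatty acid hydroxylase, where the summit lay in linc-171 (67.16 pooled, 49.04 in replicate 2 and 27.25 in replicate 3). It held too near sup-26, which encodes an RNA-binding protein (66.92 pooled, 50.97 in replicate 2 and 19.44 in replicate 3). The mrpl-40 peak was the reverse, with 70.33 pooled, 27.26 in replicate 2 and 43.15 in replicate 3. The fbxa-55, nas-30, mir-51 and act-2 peaks, with values given above, were also higher in replicate 3 by more than 10 units. With no stated scale and unknown depth, no tilt to either replicate is read from these differences. Near act-5, the gene of an intestinal actin, the values were closer (69.36 pooled, 31.18 in replicate 2 and 38.03 in replicate 3), as they were in Y69A2AR.37 on IV (79.58 pooled, 40.83 in replicate 2 and 36.17 in replicate 3).

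Distal intergenic peaks were denser in GC-rich sequence, which held a minority of them. The windows within 50 bp of the summits had a median GC content of 36.63%, against 33.66% over all such windows of distal intergenic sequence. Where the window held 50% GC or more there were 266 peaks per Mb (95% exact Poisson interval 234 to 302, 240 peaks), against 60.8 over all distal intergenic sequence. Density was 111.5 per Mb (95.5 to 129) from 45% to under 50% GC and 38.6 per Mb (32.98 to 44.82) from 35% to under 40%, and 58.1 per Mb (49.9 to 67.4) in windows under 25%. Windows of 45% GC or more held 413 peaks, or 29.5%, and 10.65% of the sequence.

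GC content moved with signal too. By signal, the median was 41.58% in the highest 25% of peaks, 36.63% and 34.65% in the next sets of 25%, and 33.66%, the value of the sequence itself, in the lowest 25%. In the 16 optimal peaks it was 46.53%, and 9 of them had 45% or more. The F55H2.5 peak on III, with a signal of 76.81 (32.01 in replicate 2 and 26.42 in replicate 3), went the other way with 13.9% GC. The control of the study was not used here, and the part of sequencing bias by GC content in these densities was not tested. X distal intergenic peaks had a median of 35.64%, promoter peaks 38.61% and intron peaks 35.64%. The GC content of the sequence of those classes was not computed.

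**Figure D3:**
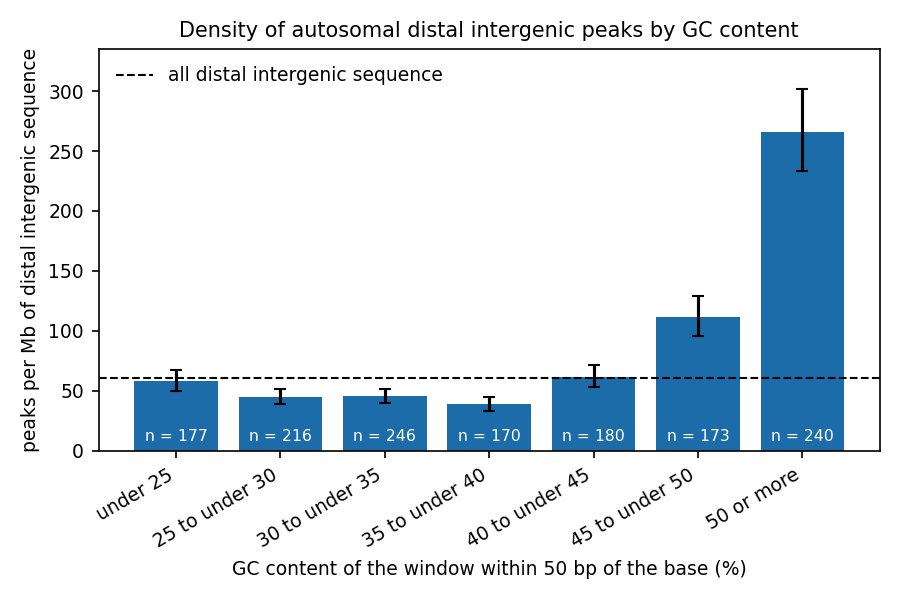
Autosomal distal intergenic peaks per Mb of distal intergenic sequence (bars, with exact Poisson 95% intervals) by the GC content of the window within 50 bp, with the number of peaks in each bar. The dashed line is the density over all such sequence, 60.8 per Mb; the bar at 50% GC or more stands at 266.

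Repeated sequence held few of the peaks. Windows of 100 bp to either side of the summit in which 50% or more of the 32-base words occur again in the nuclear genome made up 1.93% of distal intergenic peaks (27 peaks, interval 1.27 to 2.79) and 14.2% of distal intergenic sequence. The corresponding shares were 1.94% for X distal intergenic peaks, 0.547% for promoter peaks and 0.984% for intron peaks. The repeated share of the sequence of those classes was not computed. Soft-masking of the RefSeq genome, which also marks windows that held no repeated word, was counted too. Windows masked over 50% or more of their length made up 25.2% of peaks (22.9 to 27.5) and 34.5% of the sequence. The sources used here do not say how reads that align to several places were treated. In repeated sequence the highest peaks were those of nas-30 (151.5), Y49G5A.1 (80.05), srpr-2.1 (72.27) and T28H10.2 (64.72).

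In the pooled list tandem repeats held peaks in proportion to their length, which did not hold in the list of replicate 3 alone. Summits in or within 50 bp of a repeat of period 1 to 60 bases made up 5.35% of distal intergenic peaks (75 peaks, 4.23 to 6.66) and 5.42% of the sequence. The share was 4.09% (3.13 to 5.25) in the list of replicate 3 alone, an interval below that of the sequence. It was 5.65% (4.525 to 6.96) in the list of replicate 2 alone. Of the 75, 28 had a period of 1 to 10 bases, 35 of 11 to 30 bases and 12 of 31 to 60 bases. Among the 16 optimal peaks 4 lay in or within 50 bp of one (interval 7.27% to 52.4%), those of fbxa-55, nas-30, Y49G5A.1 and mir-52. The Y49G5A.1 peak, on V from 5284575 to 5285018, lay in 2606 bp of a 26-base repeat with signals of 80.05 pooled, 54.25 in replicate 2 and 26.87 in replicate 3. The T28H10.2 peak, on V from 12509945 to 12510388, lay in 633 bp of a 9-base repeat, with 64.72 pooled, 52.98 in replicate 2 and 18.7 in replicate 3. Both were about as high in replicate 2 as the peaks near cpg-1 and lower in replicate 3. The tandem repeat at mir-52 was 57 bp with a period of 3 bases, and the summit lay outside it.

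Like repeats differed widely in signal. Sequence that aligned to the 27-base repeat family (80 bp or more at 80% identity) formed 39 loci, 29 on autosomes and 10 on X, of 167 to 7957 bp. Pooled peaks lay at 6 of them and distal intergenic peaks at 4. Besides the fbxa-55 and nas-30 peaks these were a Y50D4B.2 peak on V (signal 38.26, with 18.66 in replicate 3 and no match in replicate 2) and a Y73F4A.1 peak on IV (33.77, with 32 in replicate 2 and no match in replicate 3). The windows of the fbxa-55 and nas-30 peaks were 88.7% identical over 141 bp, and those of the fbxa-55 and Y50D4B.2 peaks 85.9% identical over 185 bp. The loci with a peak had a median length of 1264 bp and those without 1760 bp, and the locus of the highest peak, near fbxa-55, was 474 bp long.

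In all, 75 distal intergenic peaks fell into 23 families whose windows aligned with each other; these peaks share sequence and are not independent. Of the families, 12 had 2 peaks, 7 had 3, and the larger ones 11, 10, 5 and 4. Of the 75, 55 (73.3%) lay in chromosome arms, against 51.7% of all distal intergenic peaks and 52.7% of the sequence. The families of 11 and 10 peaks each had 10 in arms. Sequence with windows soft-masked over 50% or more of their length was itself more common in arms (5.24 Mb) than in centres (2.71 Mb). The family of 11, all in or within 50 bp of tandem repeats, had windows with up to 725 genomic copies and signals of 30.39 to 53.65. That of 10, all in arms and spread over the 5 autosomes, had signals of 32.93 to 55.71. Some families of few copies ranked low, such as 2 peaks near nhr-41 (2 to 4 copies, signals of 31.55 to 35.54). Another of few copies ranked higher. The short element shown above had 4 copies in the genome, of which 3 held distal intergenic peaks, with pooled signals of 94.26 near F09E5.7, 83.74 near C14C11.7 and 61.69 near vps-37, the gene of an ESCRT subunit. Their windows were 84.0% to 86.2% identical. In replicate 2 they had 45.57, 46.9 and 30.33, and in replicate 3 46.94, 41.4 and 17.43, in the same gene order. The fourth copy, 104 bp long in hst-3.1, held no pooled peak.

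Non-coding RNA genes other than pseudogenes held a larger share of the peaks than of the sequence. Summits lay in them for 74 peaks, or 5.28% (4.17 to 6.58), and they covered 2.62% of distal intergenic sequence. The share was 7.69% in the highest 25% of peaks by signal and 2.86% in the lowest 25%, and 5 of the 16 optimal peaks lay in one. Among X distal intergenic peaks the share was higher, at 6.86%. It was 2.46% among autosomal promoter peaks and 2.705% among autosomal intron peaks. The sequence shares of those classes were not computed. MicroRNA genes, whose short hairpins cover 0.0334% of the sequence, held 5 peaks (0.357%, 0.116 to 0.830), and long intergenic non-coding RNA genes held 17 (1.21%, 0.708 to 1.93, against 0.729% of the sequence, which lies within the interval). Genes that the annotation calls only non-coding RNA or antisense RNA, among them those of the signal recognition particle and linc-171, held 48 (3.42%, 2.54 to 4.51, against 1.39%). piRNA genes, which lie mostly on IV, held 6 (0.428%, 0.157 to 0.929, against 0.605%), the highest near Y105C5B.5 with a signal of 36.4. Peaks near a piRNA gene, within 200 bp, were 4.99% (3.91 to 6.27), against 7.28% of the sequence.

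The microRNA peaks lay in mir-51 (98.99), mir-52 (88.99), mir-2211 (43.02), mir-45 (34.62) and mir-53 (31.59). Only the mir-51 peak matched both replicates. The mir-2211 peak matched replicate 2 alone (29.71) and the mir-45 peak replicate 3 alone (18.91). The miR-51 family is needed in the worm embryo, and its genes mir-51, mir-52 and mir-53 are autosomal members of it on IV. Of these, mir-51 had a summit within 100 bp in both replicates, and mir-52 and mir-53 (19.78) in replicate 3. At the mir-52 locus replicate 2 also had a high peak, with a signal of 53.75 and rank 122 in its list, whose summit lay 138 bp from that of the mir-52 peak. It matched the second distal intergenic peak of that locus, near Y37A1B.7 on IV from 14034009 to 14034452 (48.57 pooled), which was chosen after its values were seen. The nearest summit of replicate 2 to the mir-53 peak was 608 bp away. The mir-53 peak was far below the other two in the pooled list, and its window aligned with that of mir-52 at 80.6% identity over 108 bp.

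RNA genes of the signal recognition particle, which targets secreted proteins to the endoplasmic reticulum, gave 3 peaks of the class. Of the 5 loci that aligned to this family, 4 held a pooled peak. The srpr-2.1 peak on III had a signal of 72.27 (26.96 in replicate 2 and 36.21 in replicate 3). The srpr-3 peak on V had 44.94 (25.83 in replicate 2, no match in replicate 3), and the srpr-1.1 peak on III 39.7 with no match in either; a second pooled peak at that locus, not of the class, had 79.78. A peak at srpr-2.2, in a locus that overlaps klp-6 and not of the class, had 115.9, and srpr-1.2 held none. The srpr-2.1 and srpr-1.1 windows were 93.3% identical and shared 32-base words with other copies, so reads of the 2 may not be told apart. The srpr-3 window was 80.5% identical to that of srpr-2.1 over 113 bp and held no repeated word.

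**Figure D4:**
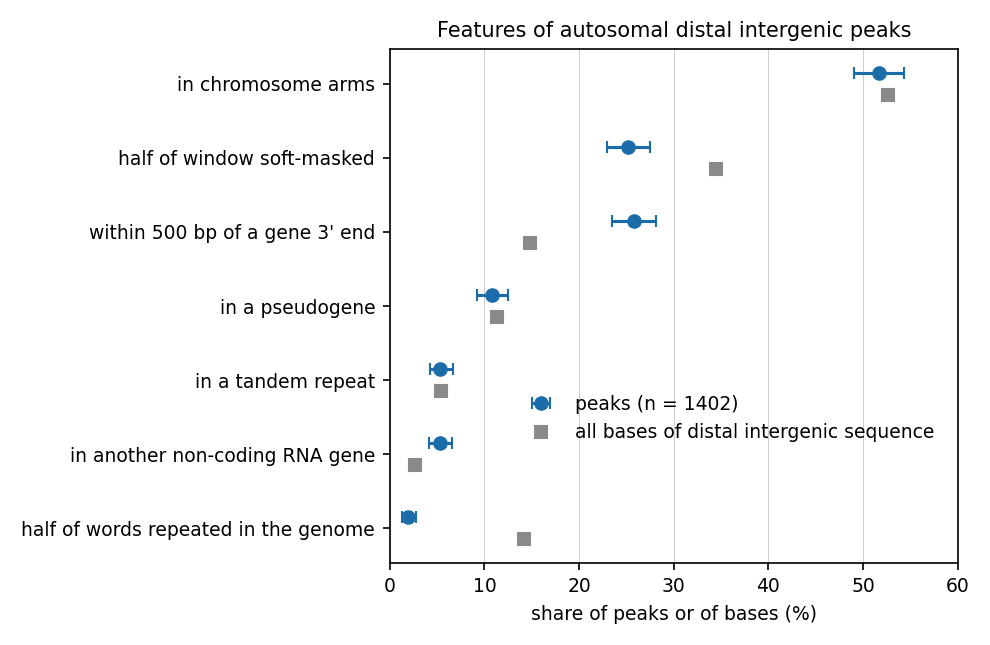
Share of the 1402 autosomal distal intergenic peaks with a feature (circles, with exact Clopper-Pearson 95% intervals) and share of all bases of distal intergenic sequence (squares). Repeated words and soft-masking are less common at peaks than in the sequence, and gene 3′ ends and non-coding RNA genes more common, while arms, pseudogenes and tandem repeats lie within the intervals.

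Pseudogenes, the disabled copies of genes, held peaks in proportion to their length. Summits lay in a pseudogene for 151 peaks, 10.8% (9.19 to 12.5), and pseudogenes cover 11.3% of distal intergenic sequence. The density was 58.1 per Mb (49.2 to 68.1) inside pseudogenes and 61.2 per Mb (57.8 to 64.7) outside. The share was 9.97% in the highest 25% of peaks by signal and 11.1% in the lowest 25%, and 0 of the 16 optimal peaks lay in one, which allows a share of up to 20.6% by the exact interval. By chromosome, the share was 2.81% (0.918 to 6.43, 5 peaks) on I, 9.02% on II, 7.5% on III, 7.97% on IV and 18.3% (14.8 to 22.1) on V. Pseudogenes cover 7.84%, 10.6%, 8.05%, 8.43% and 17.9% of distal intergenic sequence on these chromosomes in the same order, a share within the interval of the peaks on all but I, where it lies above.

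Of 1678 autosomal pseudogenes with some distal intergenic sequence, 134 held at least 1 distal intergenic peak (7.99%), and 18 held 2, the most in any. Chemoreceptor pseudogenes, the largest named family with 311 of these, had 24 with a peak and 53.6 peaks per Mb (35.03 to 78.58). F-box pseudogenes had 6 of 62 with a peak (73.2 per Mb, 26.9 to 159), C-type lectin pseudogenes 3 of 23, and MATH or BTB pseudogenes 0 of 23. The intervals of all 4 families include the density over all pseudogenes, 58.1 per Mb. The highest peaks in pseudogenes were those in R02C2.8 on V (62.7 pooled, 30.31 in replicate 2 and 28.39 in replicate 3), F07H5.3 on II (61.45, with 20.89 and 35.57 in replicates 2 and 3), srw-45 on V (53.89, with 27.9 and 22.12) and prg-2 on IV (53.26, with 26.91 and 20.14). The first of these is near R02C2.7; srw-45 is a chemoreceptor pseudogene, and prg-2 is related to Piwi proteins. Near tRNA pseudogenes, within 200 bp, lay 6 peaks (0.428%, 0.157 to 0.929, against 0.118% of the sequence), the highest with a signal of 41.62.

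Chromosome arms and centres had like densities of distal intergenic peaks. With the outer 25% at each end of an autosome as arms, 725 peaks, 51.7% (49.1 to 54.4), lay in arms, which hold 52.7% of distal intergenic sequence. That was 59.7 per Mb (55.5 to 64.2) in arms and 62.1 per Mb (57.5 to 66.9) in centres, and the median signal was 35.11 in arms and 35.18 in centres. The outer 5% at either end held 9.70% of peaks and 10.1% of the sequence, the highest being that of mrpl-40, a mitochondrial ribosomal protein gene, on III (70.33). The peaks of arms and centres differed in what they lay in. In arms 14.5% lay in pseudogenes, 30.8% in soft-masked windows and 8.0% in or within 50 bp of tandem repeats. In centres the shares were 6.80%, 19.2% and 2.51%. The sequence differed alike, with 14.7%, 43.2% and 7.29% in arms and 7.44%, 24.8% and 3.35% in centres.

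Chromosome V held 454 of the peaks and had a density of 71.9 per Mb (65.4 to 78.8), against 53.2 (45.7 to 61.7) on I, 56.3 (49.5 to 63.8) on II, 60.6 (52.5 to 69.6) on III and 56.7 (50.7 to 63.2) on IV. The excess was in arms (71.9 per Mb) as well as in the centre (71.9 per Mb). Its counting interval did not overlap those of I, II and IV and overlapped that of III. With each autosome cut into 10 bins of equal length, the 95% interval lay above the overall density in 3 of 50 bins and below it in 2 of 50. The densest was bin 5 of III, with 107.8 per Mb (74.6 to 151, 34 peaks), and the sparsest bin 3 of III, with 33.7 per Mb (17.4 to 58.8, 12 peaks).

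**Figure D5:**
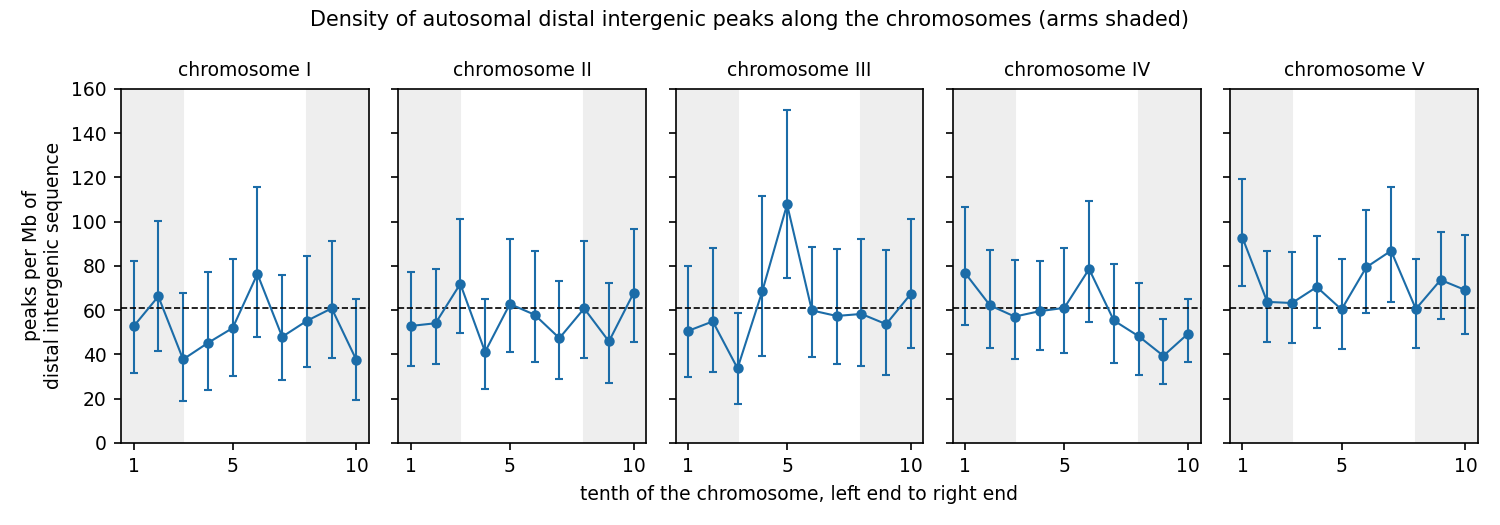
Autosomal distal intergenic peaks per Mb of distal intergenic sequence in 10 equal bins of each of the 5 autosomes, with exact Poisson 95% intervals; arms are shaded and the dashed line is the overall density, 60.8 per Mb. Bin 5 of III and bin 1 of V (92.8 per Mb) stand above the line.

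The peaks lay somewhat closer to genes than the sequence they were drawn from. The median distance to the nearest protein-coding start was 1962 bp, against 2202 bp over all bases of distal intergenic sequence, and density was 70.2 per Mb (62.5 to 78.5) from 500 to 1000 bp and 58.5 per Mb (53.5 to 63.8) from 2000 to 5000 bp. Beyond 10000 bp it was 46.3 per Mb (31.7 to 65.4). Upstream of that start lay 926 peaks, 66.0% (63.5 to 68.5), against 69.6% of the sequence. The farthest, on IV and 35021 bp from the start of Y73B6A.3, lay in the pseudogene Y73B6A.6 with a signal of 40.83 (17.72 in replicate 2 and 25.9 in replicate 3). Ends of protein-coding genes were not part of the rule. Within 500 bp of a gene's 3′ end lay 361 peaks, 25.7% (23.5 to 28.1), against 14.8% of the sequence, and the share was 31.1% in the highest 25% by signal and 23.4% in the lowest 25%. These peaks had a median GC content of 33.66%, below the 37.62% of the others. The share near 3′ ends was 16.0% among X distal intergenic peaks, 35.8% among autosomal promoter peaks and 11.2% among autosomal intron peaks, whose own sequence shares were not computed.

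The 2 genes named in the strain's genotype and insertion were looked at for nearby peaks. Within 20 kb of nhr-179, on V from 1615723 to 1618860, there were 0 distal intergenic peaks in 8269 bp of eligible sequence. Within 20 kb of unc-119, on III, there were 2 in 8723 bp, the higher with a signal of 48.48. At these lengths the counts are too small to set beside the overall density.

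Of 10 short sequences counted in the windows within 50 bp of summits, 7 were within counting error of their share in the sequence at large. All were searched on both strands, and a match is a description of letters, not a bound site. No base run can match both AGGTCA and GGGTCA, while GAGAGA also marks longer GA repeats, in which its matches overlap. The receptor half-sites AGGTCA and GGGTCA were in 2.71% (1.92 to 3.70) and 1.36% (0.818 to 2.11) of the windows, against 2.69% and 1.54% of those in distal intergenic sequence. GAGAGA was in 9.77% (8.27 to 11.4), against 5.53%, and from the highest 25% by signal to the lowest it was in 12.8%, 8.57%, 6.55% (4.20 to 9.67) and 11.1%, with no steady order. GTTCNANNC, the core of the promoter element that TFIIIC binds within tRNA genes, was in 4.78% (3.72 to 6.03), against 3.30%. A run of 8 T was in 10.49% (8.93 to 12.2), against 13.6%. The windows of the sequence were not matched to those of the peaks for GC content. The part of GC content in these differences was not tested.

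The telomere unit TTAGGC was in 3.495% against 2.91%, the GATA-type site TGATAA in 8.92% against 9.19%, the E-box CACGTG in 1.71% against 1.41%, and CTGTTTC, the core of a motif upstream of piRNA genes, in 2.43% against 2.72%. The sequence value lay within the interval of the peaks for each of these. GCGCAGGG, the core of an X-chromosome recruitment motif of dosage compensation, was in 0 windows, which allows a share of up to 0.263% by the exact interval, against 0.0253% of the sequence and 1.035% (0.448 to 2.03, 8 of 773) of the windows of X distal intergenic peaks. The count of 0 among autosomal peaks could not be told from the share in the sequence at this number of peaks.

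Some of the peaks neighboured each other. In all 186 had another distal intergenic peak within 1000 bp, in 90 groups of at most 4. The mir-51 and mir-52 loci each held 2 pooled peaks.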

How the data were processed

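Peak lists from ChIP-seq of 2 replicates were used on ce11 as deposited. Per the deposited file descriptions, the authors called peaks and background regions on each replicate and on the pooled replicates with a control alignment, and made the optimal list from them by the irreproducible discovery rate. The sources used here name no aligner, no peak caller and no treatment of reads with several alignments. For each peak the authors deposited a signal, of unstated scale, and a q-value as its −log10. The signal was used to describe and rank peaks. Without read counts the depth of either replicate is unknown. The ce10 lists, the tracks, the alignments and the control data were not used here, and no coordinates were converted.

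The WBcel235 genome (RefSeq), with genes of Ensembl release 115, was scanned base by base. Words of 32 bases were counted on both strands over the nuclear chromosomes in windows of 100 bp to either side. Tandem repeats had a period of 1 to 60 bases with 80% of bases equal over at least 40 bases. GC content and motifs used windows of 50 bp to either side. Shares over distal intergenic sequence are exact counts over all its bases. Families came from blastn 2.17.0 (80 bp or more at 80% identity), and genomic matches within 1000 bp were merged. The other scans used Python 3.11.15, numpy 2.4.6, pandas 2.3.3 and scipy 1.17.1, and were tested on simulated sequence. With 1 group no test between groups was possible, and intervals are descriptive.

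The named peaks were the 25 of highest signal, all in the optimal list, up to 4 of each feature class or family, and the farthest from a start. The flanks of both transgene genes, pseudogene shares by chromosome, srpr-2.2 and srpr-1.2, the bins by GC content and by distance, and the shares near gene ends were chosen after the values were seen. The members, lists and motifs were chosen with earlier results of these data known.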

Additional observations from a re-analysis of the deposited data

How the results depend on the processing

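No paired analysis was possible because there is 1 group, whose replicates are compared only by recurrence of peaks. The lists of replicate 2 or 3 alone, cut to the length of the pooled list, gave 1442 to 1469 peaks. Of these, 4.16% to 5.31% lay in other non-coding RNA genes (2.62% of the sequence). In or within 50 bp of tandem repeats lay 5.65% in replicate 2 and 4.09% in replicate 3 (5.42% of the sequence). The upper 50% of the pooled list left 597 peaks, of which 42.4% matched both replicates, with a GC content of 39.6% and 25.1 peaks per Mb in arms and 26.8 in centres. Matching changed the share found in both replicates to 12.9% within 50 bp, 29.2% within 200 bp and 35.7% by any overlap. Repeated sequence covered 0.999% of peaks with 50-base words, 16.6% where any word recurred and 25.2% by soft-masking, against 11.5%, 29.5% and 34.5% of the sequence. Pseudogenes within 200 bp held 13.1% of peaks (13.6% of the sequence), arms as the outer stretches of 3 equal ones 67.05% (68.9%), and tandem repeats with 90% of bases equal 2.78% (3.42%). GCGCAGGG was in 0.285% of windows of 100 bp to either side, in place of 0. The share of the sequence at that width is not given here, so the values cannot be compared. The highest pooled peaks by signal, taken to 2 times the length of the optimal list, held 43 of the class in place of 16, and 20 peaks fell into families at 90% identity in place of 75. Among the peaks found in both replicates, an alternative chosen after the data were seen, 3.14% lay in repeated sequence, 9.06% in pseudogenes, 9.76% in other non-coding RNA genes and 7.67% in tandem repeats, with a GC content of 41.58%. Keeping 1 peak per 1000 bp, also added later, and stricter distances from starts or small RNA genes moved no share beyond its counting interval. With starts more than 1000 bp away 1099 peaks were left, and arms had 58.9 and centres 58.4 per Mb, the reverse of the order above. The weak scores, unknown depth, 1 group of 2 replicates and the absence of the control from these comparisons limit every statement above, since peaks were not separated from background regions.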
